A study of Mus musculus with 7 samples.

Results

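Smoothened, its 3 ligand co-receptors and the 4 genes of the ciliary EvC complex were followed in SMB21, a mouse medulloblastoma cell line, after disruption of the ciliary genes Ofd1 or Kif3a. The 8 genes, Smo, Boc, Cdon, Gas1, Evc, Evc2, Efcab7 and Iqce, were chosen by name from the 24047 genes of the deposited count table. Earlier results of these data were known when they were chosen. Each of the 8 matched 1 row. All lines carried a Ptch mutant background, with Ptch1tm1Mps/J given as the strain background and adult as the age, and all received a lentiCRISPR vector 2 weeks before RNA was collected from neurosphere cultures. The GFP control group (2 libraries) received a guide against GFP, the Ofd1 CRISPR group (3 libraries) a guide against Ofd1 and the Kif3a CRISPR group (2 libraries) a guide against Kif3a. The libraries are labelled biological replicates. The series text counts 3 GFP control replicates, of which 2 were analysed here. Whether each group was a pool of infected cells or a clone is not given in the sources used here, and everything was measured in a single line.

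Smo is the seven-pass membrane protein that carries the Hedgehog signal across the membrane. It is held inactive by Ptch1, the Hedgehog receptor, and when it is released it collects in the primary cilium and activates the Gli transcription factors. In cells that lack working Ptch1, as in Ptch mutant medulloblastoma, Smo signals without ligand. Boc and Cdon, immunoglobulin and fibronectin domain proteins, and Gas1, a protein anchored in the membrane by a lipid, bind Hedgehog ligands together with Ptch1 and act as co-receptors. In the embryo the genes of these co-receptors are known to be held down by Hedgehog signalling, and in the cerebellum Boc and Gas1 serve the response of granule neuron progenitors, the cells from which this tumour arises. Evc and Evc2, the genes mutated in Ellis-van Creveld syndrome, encode partner membrane proteins that bind active Smo in a zone near the base of the cilium, where Efcab7 and Iqce anchor them. Ofd1 is a protein of the centriole and the base of the cilium, and Kif3a is a motor subunit of the kinesin that builds the cilium.

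Transcript levels are given as CPM, the counts of a gene as a share of the library total per 1000000 counts, with the total scaled by TMM, a correction for composition, and differences as log2 fold changes with their standard error (SE) from edgeR's quasi-likelihood test. A gene was called when its p-value, adjusted by Benjamini-Hochberg over all 12875 tested genes, was under 0.05. All 8 genes passed the filter on low counts. Library totals lay between 17961767 and 23022701 counts, so that 3 counts correspond to between 0.130 and 0.167 CPM. The Kif3a transcript was at 104 CPM in each of the GFP control libraries against 73.9 and 60.5 CPM with the Kif3a guide (log2 fold change -0.63, SE 0.0929, adjusted p = 0.000854). The Ofd1 transcript read 22.6 and 23.2 CPM with the GFP guide against 21.0, 20.03 and 22 CPM with the Ofd1 guide. Its 3 Ofd1 CRISPR libraries thus lay below both control libraries, where 49.6% of all tested genes had separate ranges. The difference did not pass the test (-0.12, adjusted p = 0.398). The same transcript was higher with the Kif3a guide, at 31.7 and 29 CPM (0.41, adjusted p = 0.0126), and lower in Ofd1 CRISPR than in Kif3a CRISPR (-0.53, adjusted p = 0.0399). The first GFP control library stood apart in markers of myeloid cells, with a summed level over 12 such genes of 19.6 CPM against 2.96 to 4.62 CPM in the other 6 libraries. The 7 granule neuron progenitor markers examined were detected in every library, at a summed level of 2365 and 2347 CPM in GFP control and of 2778 to 3337 CPM in the CRISPR libraries. With 2 or 3 libraries a group and 4 residual degrees of freedom, p-values measure only the spread between these libraries.

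The start regions of 3 genes are shown because their transcripts are those that changed in the results, or, for Evc2, because it is the partner of one of them and its neighbour in the genome. RefSeq (build GRCm38.p6) gave such a region for 5 of the 8 genes, Smo, Cdon, Gas1, Evc and Evc2. The Cdon region lies at a start inside the gene, downstream of the starts of its longer transcripts. Each sequence below is the 250 bases before the start on the gene's own strand. Capitals mark matches to the motifs searched on both strands and the longest word that Evc and Evc2 share.
Gas1 (chr13:60177536-60177785, minus strand): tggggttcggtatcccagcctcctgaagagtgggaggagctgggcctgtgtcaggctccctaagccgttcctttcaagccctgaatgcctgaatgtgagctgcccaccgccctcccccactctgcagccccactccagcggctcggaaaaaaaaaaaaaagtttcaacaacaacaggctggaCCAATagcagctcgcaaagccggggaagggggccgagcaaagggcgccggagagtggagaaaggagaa
Evc (chr5:37336882-37337131, minus strand): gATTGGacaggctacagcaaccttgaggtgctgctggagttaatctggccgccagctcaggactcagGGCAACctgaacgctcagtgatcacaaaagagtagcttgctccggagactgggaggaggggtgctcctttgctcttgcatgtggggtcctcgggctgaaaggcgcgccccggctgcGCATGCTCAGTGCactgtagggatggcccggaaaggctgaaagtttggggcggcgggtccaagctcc
Evc2 (chr5:37338228-37338477, plus strand): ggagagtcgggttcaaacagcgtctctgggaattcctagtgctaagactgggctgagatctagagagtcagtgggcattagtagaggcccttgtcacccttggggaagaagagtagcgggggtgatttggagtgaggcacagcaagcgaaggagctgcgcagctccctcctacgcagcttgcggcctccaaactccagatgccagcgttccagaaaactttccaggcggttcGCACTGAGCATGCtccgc

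Evc and Evc2 are read in opposite directions from starts 1597 bases apart. The motifs searched were CCAAT (the CCAAT box), GTTGCC (one arm of the X-box bound by RFX factors of ciliary genes), CAGCTG (an E-box) and GACCACCCA (the 9 letters bound by Gli proteins), and none of them overlaps another in these sequences. The Gas1 region held 1 CCAAT match, 68 bases before the start. In the Evc region a CCAAT match on the other strand began 249 bases before the start and a GTTGCC match on the other strand 183 bases before it. In the Evc2 region no match to these motifs was found. CCAAT is in 33.8% of all 32851 regions of this length, GTTGCC in 10.4%, CAGCTG in 13% and GACCACCCA in 0.225%, and neither of the last 2 was found in the 5 regions examined, the internal one of Cdon included. The longest word common to the Evc and Evc2 regions, GCATGCTCAGTGC, runs in opposite directions in them. It occurs in 7 of the 32851 regions (0.0213%), the Evc and Evc2 regions included. The longest words shared by the other pairs of the 5 regions had 7 to 11 letters. The word was picked after the sequences had been seen, and a match is a description of the letters only.

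Smo, Boc and Gas1 were abundant in these cells and Cdon was close to silent. Over the 7 libraries, the mean level of Smo lay at percentile 97.7 of the tested genes, that of Boc at 97.4 and that of Gas1 at 89.4. Evc and Evc2 stood at percentiles 71.5 and 70.1, Iqce at 54.6 and Efcab7 at 29.5. Cdon lay at percentile 9.91, with 27 to 47 counts a library. Longer transcripts give more counts, so genes were set side by side on CPM per kilobase of exon sequence. In GFP control Boc then came first with 86.7 ± 2.60 CPM per kilobase (SD, n = 2), followed by Gas1 with 74.8 ± 3.12 and Smo with 67.2 ± 0.275 CPM per kilobase. The EvC complex genes were lower by this measure, at 11.8 ± 0.0427 CPM per kilobase for Evc2, 8.79 ± 0.481 for Evc, 6.98 ± 0.174 for Efcab7 and 3.98 ± 0.311 for Iqce. Cdon was at 0.206 ± 0.00283 CPM per kilobase. The libraries of neighbouring genes in this order did not overlap within GFP control, nor within either CRISPR group. In both CRISPR groups Smo, at 73.4 ± 4.28 (n = 3, Ofd1 CRISPR) and 72.7 ± 2.61 CPM per kilobase (n = 2, Kif3a CRISPR), stood above Gas1, at 53.6 ± 5.67 and 49.5 ± 9.36 CPM per kilobase, and Boc stayed first. The order depended on the length used. With the median length of a gene's coding transcripts in place of all its exons, GFP control ran Gas1, Smo, Boc, Evc, Evc2, Iqce, Efcab7, Cdon, and both CRISPR groups ran Smo, Boc, Gas1, Evc, Evc2, Iqce, Efcab7, Cdon.

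**Figure D1:**
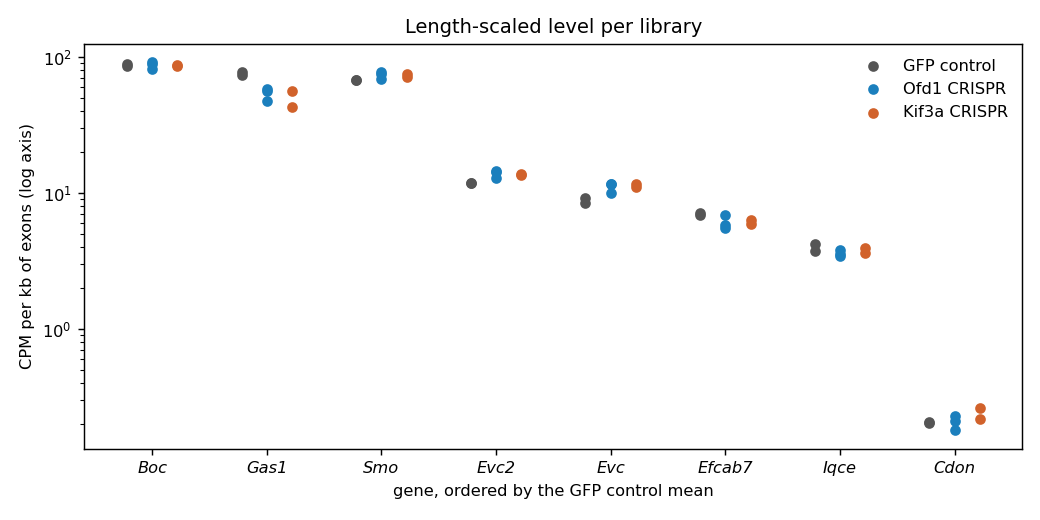
Level of each gene in CPM per kilobase of exon sequence on a log axis, 1 point per library, coloured by group, genes ordered by their GFP control mean. Boc, Gas1 and Smo lie together at the top, Gas1 falls below Smo in the CRISPR libraries, and Cdon lies far below all others.

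Of the 8 genes, Evc was higher and Gas1 lower in Ofd1 CRISPR than in GFP control, and the same 2 genes passed in Kif3a CRISPR. Among all tested genes 14.9% were called with the Ofd1 guide (6.79% higher and 8.09% lower) and 20.1% with the Kif3a guide (9.19% higher and 10.9% lower). With 2 of 8 called, the shares among these genes were thus close to the background in both comparisons. The median log2 fold change over the 8 genes was 0.0030 with the Ofd1 guide and 0.052 with the Kif3a guide, beside 0.0028 and 0.0080 over all tested genes. Library ranges did not overlap with GFP control for 5 of the 8 genes in Ofd1 CRISPR, where 49.6% of all tested genes had separate ranges, and for 6 of 8 in Kif3a CRISPR, where 66.5% had. Both comparisons use the same 2 GFP control libraries.

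**Figure D2:**
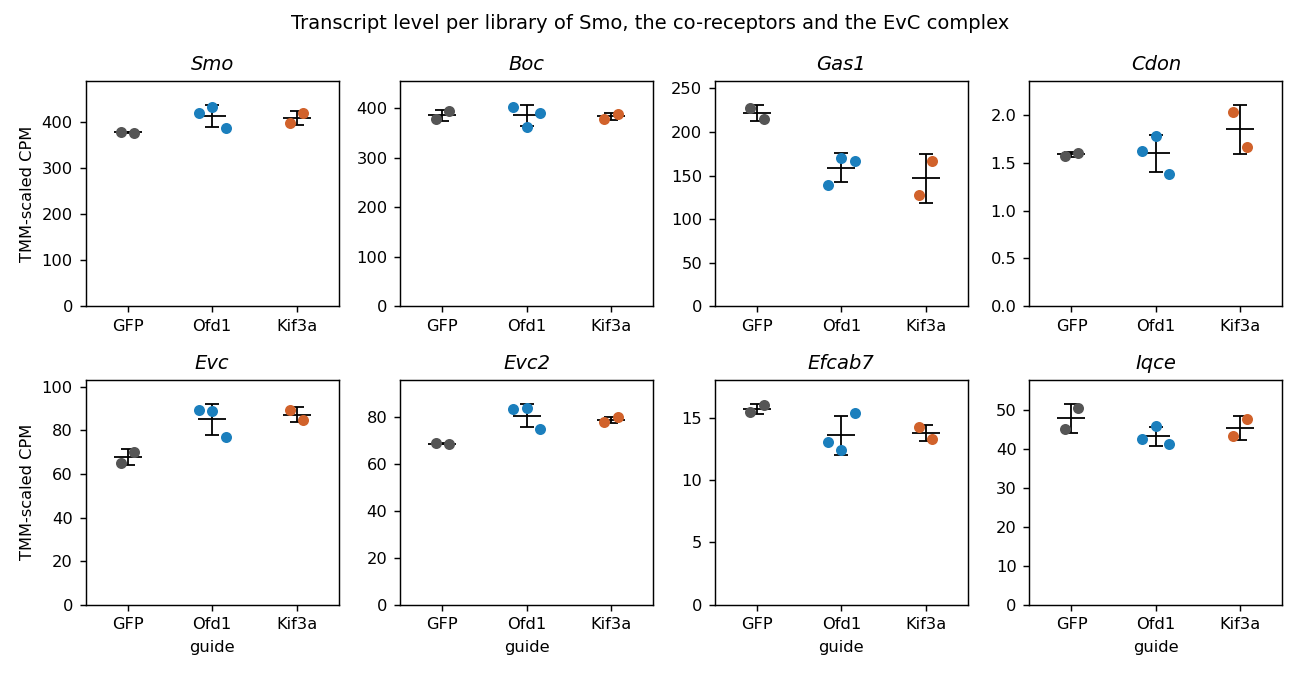
TMM-scaled CPM of the 8 genes in each library (points) with the group mean and SD (bars), each panel on its own linear axis from 0. Gas1 is lower in the 5 CRISPR libraries (127 to 170.1 CPM) than in GFP control (215 and 228 CPM), Evc is higher in all 5, and Boc overlaps throughout.

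Smo, the signal transducer itself, did not pass the test with either guide. Its level was 379 and 377 CPM in the control libraries, 419, 433 and 386 CPM in the libraries of the Ofd1 guide, and 398 and 419 CPM in those of the Kif3a guide. The 5 CRISPR libraries all lay above the 2 control libraries, which differed from each other by very little (378 ± 1.54 CPM, SD, n = 2). The log2 fold change was 0.13 (SE 0.0698, 95% interval -0.03 to 0.28, adjusted p = 0.243) with the Ofd1 guide and 0.11 (SE 0.0762, interval -0.05 to 0.28, adjusted p = 0.327) with the Kif3a guide. Across all 7 libraries the highest level of Smo was 1.15 times the lowest.

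Boc, the most abundant co-receptor by exon length, was nearly level over the libraries. It stood at 378 and 394 CPM with the GFP guide, 403, 363 and 391 CPM with the Ofd1 guide, and 379 and 389 CPM with the Kif3a guide. The groups overlapped completely, and its coefficient of variation over the 7 libraries, 3.45%, was the smallest of the 8 genes. The log2 fold change was -0.00090 (SE 0.0684, 95% interval -0.15 to 0.15, adjusted p = 0.994) with the Ofd1 guide and -0.0089 (SE 0.0749, interval -0.17 to 0.15, adjusted p = 0.949) with the Kif3a guide, and both signs turned positive when library totals alone set the scale (0.03 and 0.02). Cdon, the near relative of Boc, was at 1.57 and 1.60 CPM in the control libraries, 1.63, 1.78 and 1.39 CPM in the libraries of the Ofd1 guide, and 2.03 and 1.67 CPM in those of the Kif3a guide. The Kif3a CRISPR libraries lay above the control libraries and the Ofd1 CRISPR libraries lay on both sides of them. At this depth the interval was wide, -0.54 to 0.55 on the log2 scale with the Ofd1 guide (adjusted p = 0.990) and -0.35 to 0.81 with the Kif3a guide (adjusted p = 0.583), so a change of that size was not detectable.

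Among the co-receptors Gas1 alone was called, and it was lower with both guides, though a difference between their changes was not tested. Its level was 228 and 215 CPM with the GFP guide, 139.5, 170.1 and 167 CPM with the Ofd1 guide, and 127 and 166 CPM with the Kif3a guide. Every CRISPR library lay below both control libraries, and the first replicate was the lowest in each CRISPR group. The group means were 222 ± 9.24 CPM (SD, n = 2) in GFP control, 159 ± 16.8 CPM (n = 3) in Ofd1 CRISPR and 147 ± 27.7 CPM (n = 2) in Kif3a CRISPR. The log2 fold change was -0.48 (SE 0.110, 95% interval -0.72 to -0.24, adjusted p = 0.0138) with the Ofd1 guide and -0.60 (SE 0.122, interval -0.86 to -0.33, adjusted p = 0.00578) with the Kif3a guide. The call depended on single libraries. Without GFP control replicate 1, the library with myeloid transcripts, the Ofd1 guide difference was -0.44 and did not pass. Without Kif3a CRISPR replicate 1 the Kif3a guide difference was -0.41 and did not pass. Each of these fits left a group with 1 library, whose spread was assumed to be that of the other groups. The counts of Gas1 divided by those of Smo, a ratio within each library that no scaling can change, were 0.602 and 0.571 in GFP control, 0.333, 0.393 and 0.432 in Ofd1 CRISPR and 0.319 and 0.397 in Kif3a CRISPR. On this ratio as well the control libraries and the CRISPR libraries did not overlap, but Smo itself lay higher in the CRISPR libraries. Divided by the counts of Boc, those of Gas1 gave 0.604 and 0.545 in GFP control. The values were 0.346, 0.469 and 0.426 in Ofd1 CRISPR and 0.336 and 0.428 in Kif3a CRISPR, again without overlap with the control libraries. In the reference annotation 589 bases of the Gas1 exons (19.9%) overlap an antisense transcript, Gm48488, that has no row in the table. The library kit marks strand, but the strand setting of the counting is not given in the sources used here.

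Gas1 was set beside 2 genes that Hedgehog signalling switches on, Ptch1 and Hhip. These had the largest falls among the 10 Hedgehog target genes described below, which did not all fall. Atoh1 on that list was higher with both guides (0.53 and 0.57). Ptch1, the receptor gene and itself a target, was at 139.8 and 149.9 CPM in the control libraries, 59.0, 85.1 and 86.9 CPM in the libraries of the Ofd1 guide, and 51.5 and 70.7 CPM in those of the Kif3a guide. Hhip, a membrane protein that traps ligand and another target, was at 124 and 145 CPM with the GFP guide, 27.5, 56.9 and 61.7 CPM with the Ofd1 guide, and 42.8 and 56.0 CPM with the Kif3a guide. For Gas1, Ptch1 and Hhip alike the first replicate was the lowest library of each CRISPR group. That library also differed most from GFP control as a whole. Against GFP control replicate 1, the chi-square per degree of freedom was 45.3, 23.9 and 17.95 for Ofd1 CRISPR replicates 1, 2 and 3. It was 51.7 and 29.9 for Kif3a CRISPR replicates 1 and 2. The share of all genes with this order was not tested, so it is not known whether the order is particular to these genes. Pdgfra, a receptor tyrosine kinase gene that also serves as a marker of fibroblasts, stood at 269 and 256 CPM in the control libraries, 79.5, 140.2 and 168 CPM in the libraries of the Ofd1 guide, and 89.5 and 131 CPM in those of the Kif3a guide. It was lower with the Ofd1 guide (-1.02, adjusted p = 0.0126) and with the Kif3a guide (-1.26, adjusted p = 0.00605), calls that ended on leaving out GFP control replicate 1 (adjusted p = 0.0668) and Kif3a CRISPR replicate 1 (adjusted p = 0.134) respectively. Gas1 is also abundant in fibroblasts. The summed level of 10 fibroblast markers was 299 and 285 CPM in GFP control, 102 to 191 CPM in Ofd1 CRISPR and 111 to 153 CPM in Kif3a CRISPR, and nearly all of it was Pdgfra and Twist1. The collagen gene Col1a1 lay between 0.377 and 0.852 CPM in all libraries, and Col1a2, Col3a1, Dcn, Pdgfrb and Lum were at or near 0. The part of the fibroblast and myeloid markers in the Gas1 difference was not tested. Fewer cells of a type and less RNA per cell cannot be told apart in such bulk libraries.

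**Figure D3:**
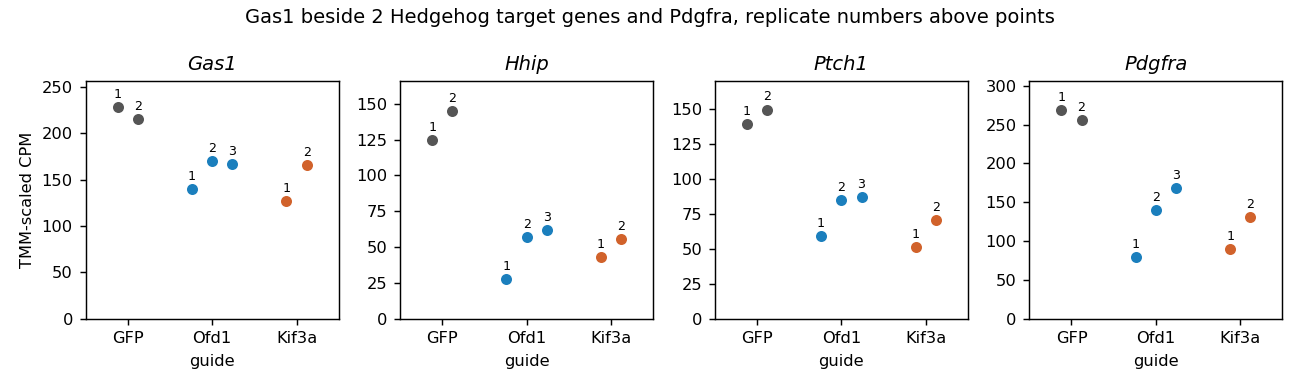
TMM-scaled CPM of Gas1, the Hedgehog targets Hhip and Ptch1, and Pdgfra in each library, replicate numbers above the points, each panel on its own linear axis from 0. In all 4 panels the GFP control libraries are highest and replicate 1 is the lowest library of each CRISPR group. Replicate 1 of each CRISPR group also differed most from GFP control as a whole library.

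Evc, the first of the EvC pair, rose with both guides. It was at 65.1 and 70.3 CPM with the GFP guide, 89.4, 89.1 and 76.9 CPM with the Ofd1 guide, and 89.6 and 85.0 CPM with the Kif3a guide. The 5 CRISPR libraries lay above both control libraries, with Ofd1 CRISPR replicate 3 the nearest to them. The log2 fold change was 0.33 (SE 0.0831, 95% interval 0.15 to 0.51, adjusted p = 0.0211) with the Ofd1 guide and 0.37 (SE 0.0901, interval 0.17 to 0.56, adjusted p = 0.0145) with the Kif3a guide. The Ofd1 guide call did not survive leaving out GFP control replicate 1 (0.28, adjusted p = 0.208), nor GFP control replicate 2 (0.39, adjusted p = 0.0707), nor Ofd1 CRISPR replicate 2 (0.30, adjusted p = 0.0650). The Kif3a guide call did not survive leaving out GFP control replicate 1 (0.31, adjusted p = 0.145) or Kif3a CRISPR replicate 1 (0.34, adjusted p = 0.128). In each of these fits the sign was the same as with all libraries. The granule neuron progenitor markers Atoh1, Barhl1, Pax6, Meis1 and Neurod1 also lay higher in every CRISPR library than in either control library, whereas Zic1 and Zic2 overlapped. Separate ranges were common, at 49.6% of all tested genes for Ofd1 CRISPR against GFP control and 66.5% for Kif3a CRISPR. The share with all 5 CRISPR libraries on the same side of the control libraries was not computed. The astrocyte and neural stem cell markers summed to 853 and 911 CPM in GFP control and to 742 to 795 CPM in the CRISPR libraries. Of these, Sox2 (56.2 and 57.2 CPM against 30.9 to 36.9 CPM) and Sox9 (224 and 232 CPM against 123 to 156 CPM) lay lower in all CRISPR libraries. Gfap went the other way except in Ofd1 CRISPR replicate 2. It read 43.3 and 43.4 CPM with the GFP guide, 133.9, 34.9 and 71.1 CPM with the Ofd1 guide, and 92.1 and 59.03 CPM with the Kif3a guide. For S100b, Slc1a3 and Nes the control and CRISPR libraries overlapped. The part of these markers in the Evc and Gas1 differences was not tested.

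Evc2, whose product pairs with that of Evc, lay higher in the CRISPR libraries but did not pass the threshold. Its level was 68.9 and 68.5 CPM in the control libraries, 83.4, 83.8 and 74.9 CPM in the libraries of the Ofd1 guide, and 78.1 and 79.9 CPM in those of the Kif3a guide. As for Evc, no CRISPR library reached down to the control libraries, and Ofd1 CRISPR replicate 3 was the nearest. The log2 fold change was 0.23 (SE 0.0728, 95% interval 0.07 to 0.39, adjusted p = 0.0510) with the Ofd1 guide and 0.20 (SE 0.0792, interval 0.03 to 0.38, adjusted p = 0.0936) with the Kif3a guide. Without Ofd1 CRISPR replicate 3 both passed, at 0.28 (adjusted p = 0.0121) and 0.20 (adjusted p = 0.0435). The counts of Evc divided by those of Evc2, its neighbour, were 0.945 and 1.03 in GFP control, 1.07, 1.06 and 1.03 in Ofd1 CRISPR and 1.15 and 1.06 in Kif3a CRISPR. On this ratio the GFP control and Ofd1 CRISPR libraries overlapped narrowly, at 1.0263 in GFP control replicate 2 and 1.0261 in Ofd1 CRISPR replicate 3. Both Kif3a CRISPR libraries lay above both control libraries.

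The anchors of the EvC complex did not pass with either guide. Efcab7, a calcium-binding domain protein, was at 15.4 and 15.98 CPM with the GFP guide, 13.0, 12.4 and 15.4 CPM with the Ofd1 guide, and 14.2 and 13.3 CPM with the Kif3a guide. All CRISPR libraries lay below the control libraries, Ofd1 CRISPR replicate 3 only just. The log2 fold change was -0.21 (SE 0.119, 95% interval -0.47 to 0.05, adjusted p = 0.263) with the Ofd1 guide and -0.19 (SE 0.130, interval -0.47 to 0.09, adjusted p = 0.332) with the Kif3a guide. Iqce, its partner at the base of the zone, was at 45.2 and 50.5 CPM in the control libraries, 42.5, 46.0 and 41.4 CPM in the libraries of the Ofd1 guide, and 43.3 and 47.6 CPM in those of the Kif3a guide. Its groups overlapped, with log2 fold changes of -0.14 (interval -0.33 to 0.04, adjusted p = 0.269) and -0.08 (interval -0.28 to 0.12, adjusted p = 0.596). The 4 genes of the complex thus comprised 1 that rose and 3 that did not pass, and whether the members differ from each other in their change was not tested.

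**Figure D4:**
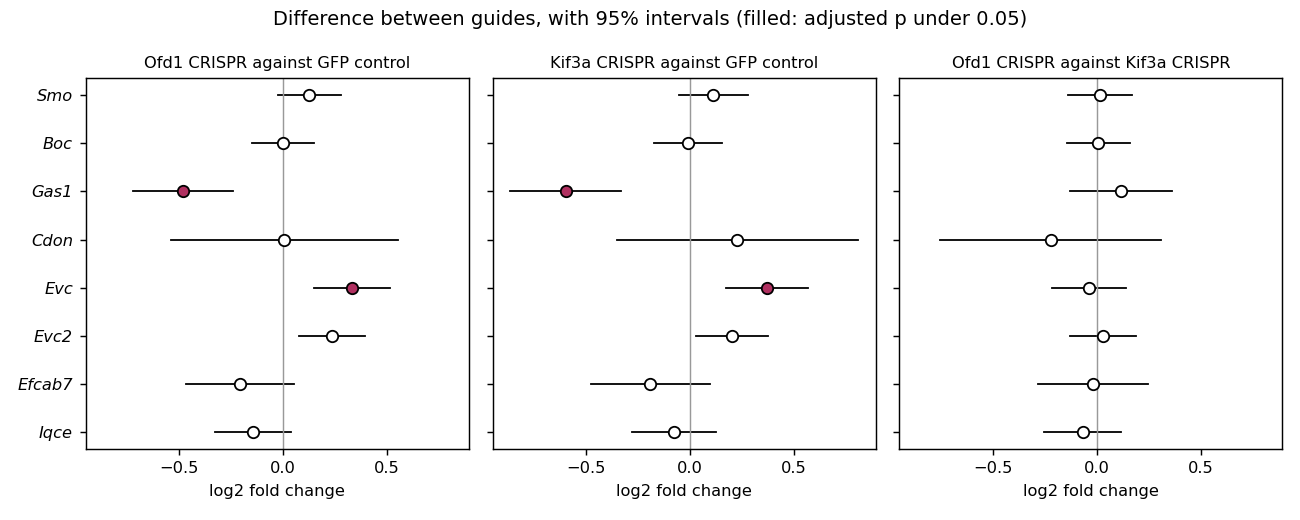
Log2 fold change of each gene in the 3 comparisons (points) with its 95% interval (lines), filled where the adjusted p was under 0.05. Gas1 lies below 0 and Evc above 0 in both comparisons with GFP control, and every interval of the Ofd1 against Kif3a comparison spans 0.

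**Figure D5:**
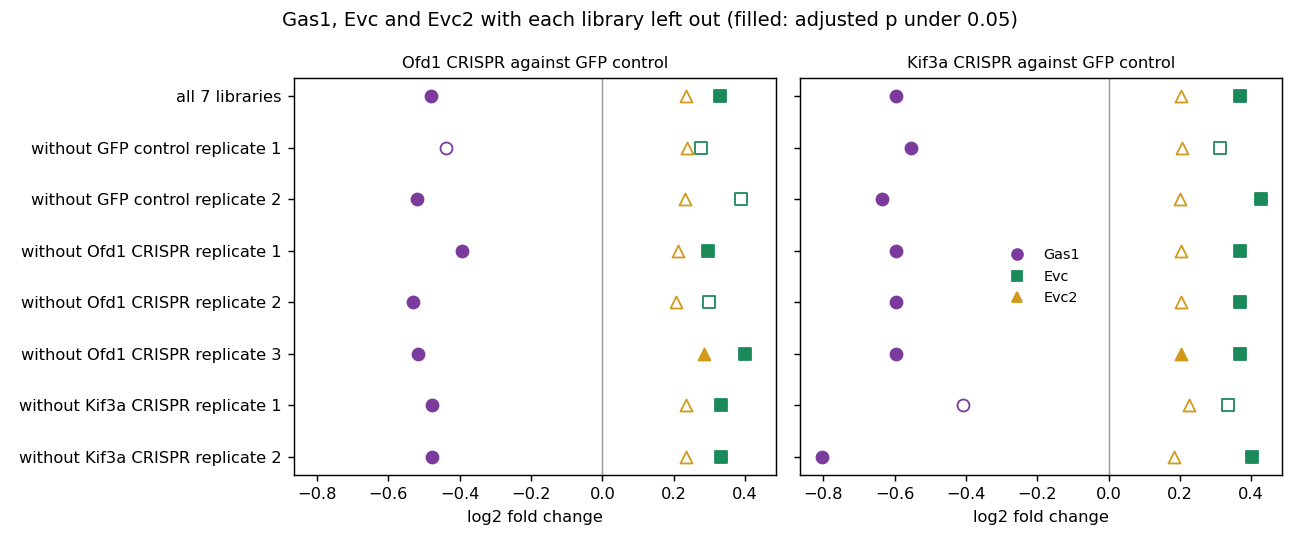
Log2 fold change of Gas1, Evc and Evc2 with all 7 libraries and with each library left out in turn, filled where the adjusted p was under 0.05. The signs are the same in every fit, while the calls of Gas1 and Evc are lost in 1 to 3 of the fits in each comparison and Evc2 is called only without Ofd1 CRISPR replicate 3.

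The guides were also set directly against each other. None of the 8 genes was called between Ofd1 CRISPR and Kif3a CRISPR by edgeR's quasi-likelihood test, none had an unadjusted p under 0.05 and none was called by DESeq2, where edgeR called 0.179% of all tested genes (0.171% higher and 0.00777% lower). The library ranges of the groups overlapped for all 8 genes, while 23% of all tested genes had separate ranges. Gas1 had a log2 fold change of 0.12 (95% interval -0.13 to 0.36, adjusted p = 0.786) in Ofd1 CRISPR against Kif3a CRISPR, and Evc one of -0.04 (interval -0.22 to 0.14, adjusted p = 0.920). Smo stood at 0.01 (interval -0.14 to 0.17, adjusted p = 0.965), Evc2 at 0.03 (interval -0.13 to 0.19, adjusted p = 0.926) and Boc at 0.0080 (interval -0.14 to 0.16, adjusted p = 0.983). For Cdon the interval was the widest, from -0.75 to 0.31. Differences inside these intervals cannot be told from none with 3 and 2 libraries, and larger ones could also go uncalled. The Kif3a transcript itself, at 0.48 (interval 0.29 to 0.66, adjusted p = 0.0588), did not pass between the CRISPR groups.

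The genes whose log2 levels ran most like each of the 8 over the 7 libraries are given as a description, with Pearson's r, among tested genes averaging 5 CPM or more. The libraries share their groups and the best of many genes were picked, so high values of r arise readily. For the same reason the tests of the picked genes given below add no separate result to those of the 8. Gas1 ran most like Ninj1 (r = 0.997), Tbx1 (0.997) and Mri1 (0.996). Tbx1, a T-box transcription factor, was at 195 and 189.5 CPM with the GFP guide, 88.2, 123 and 114 CPM with the Ofd1 guide, and 72.5 and 115 CPM with the Kif3a guide, and it fell with both guides (-0.82, adjusted p = 0.00670, and -1.04, adjusted p = 0.00241). Evc ran most like Med12 (0.995), Ago1 (0.993) and Usp20 (0.992), of which Med12, a subunit of the Mediator kinase module, rose with both guides (0.49, adjusted p = 0.0124, and 0.60, adjusted p = 0.00495). Without GFP control replicate 1 neither Med12 call passed (adjusted p = 0.132 and 0.0554), nor did the Kif3a guide call without Kif3a CRISPR replicate 1 (adjusted p = 0.0843). Among the genes most like Evc2 were Tead2 (0.996) and Klf7 (0.989), and Smo most like Mcrs1 (0.993), Ap2a1 (0.987) and Xpo6 (0.984). For Boc the best likeness was lower, with 1110051M20Rik (0.949), Camkv (0.936) and Dusp28 (0.930). Cdon, at its few counts, ran most like Ccny (0.994), Zfp248 (0.982) and Tbce (0.978), Efcab7 most like Mum1l1 (0.987), Nkap (0.981) and 9630028B13Rik (0.976), and Iqce most like Notch1 (0.975), Usp36 (0.963) and Rhbdf1 (0.962).

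The rest of the pathway around these genes was read from 10 lists. The counts called in them stand beside 14.9% of all tested genes called with the Ofd1 guide and 20.1% with the Kif3a guide. Of 69 different list genes tested, 18 were called with the Ofd1 guide (8 higher and 10 lower) and 20 with the Kif3a guide (8 higher and 12 lower), and 4 and 5 of these kept the call with each library left out in turn. Without GFP control replicate 2 the numbers were 4 and 9, without GFP control replicate 1 they were 6 and 11, and with the Kif3a guide they were 5 without Kif3a CRISPR replicate 1 and 11 without Kif3a CRISPR replicate 2. Upstream of the 8 genes, the ligand and ligand release list had 4 tested genes, none of which passed with either guide. Ihh, the one ligand gene tested, had a mean of 0.324 CPM in GFP control. From the list of ligand-binding receptors and antagonists, Ptch1 (-0.91 and -1.25) and Hhip (-1.47 and -1.45) were lower with both guides. Ptch1 kept its call in every fit with a library left out, and so did Hhip with the Ofd1 guide, whereas Hhip lost it with the Kif3a guide without Kif3a CRISPR replicate 1 (adjusted p = 0.0964).

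Among the regulators of Smo, a list of 12 kinases, arrestins, ubiquitin ligases and ciliary factors, none passed with the Ofd1 guide (median 0.0056). With the Kif3a guide 3 were lower (median -0.01), namely Arrb1, a beta-arrestin (-0.55), Rnf157, a ubiquitin ligase (-0.29), and Arl13b, a small GTPase of the ciliary membrane (-0.29). Each of these calls was kept in 3 of the 7 fits with a library left out, with a highest adjusted p of 0.192, 0.265 and 0.209 in turn. Of the 11 BBSome and intraflagellar transport genes that move Smo, Hspb11 was lower with both guides (-0.58 and -0.47). Ift27 was higher with the Ofd1 guide (0.25) and Bbs5 lower with the Kif3a guide (-0.50), and the other 8 did not pass in either comparison (medians 0.08 and -0.0014). In the 4-gene Inversin compartment, which lies next to the EvC zone in the proximal cilium, Anks6 was higher with both guides (0.46 and 0.43), with list medians of 0.17 and 0.28. The highest adjusted p with a library left out was 0.222 for Anks6, 0.291 for Ift27 and 0.242 for Bbs5, and for Hspb11 it was 0.0661 with the Ofd1 guide and 0.128 with the Kif3a guide.

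Downstream, 11 genes of the Gli proteins and their restraints were tested, with medians of -0.07 and -0.15. Stk36, a kinase of the Fused family, was higher with both guides (0.55, adjusted p = 0.00820, and 0.77, adjusted p = 0.00131). Gli1 (-0.84 and -0.82), Gli2 (-0.36 and -0.47) and Sufu (-0.28 and -0.38) were lower with both guides, and Prkacb, a catalytic subunit of protein kinase A, was lower with the Ofd1 guide (-0.28). Of these, Stk36 with the Kif3a guide kept its call with every library left out. The highest adjusted p of the others in such fits ran from 0.0620 for Stk36 with the Ofd1 guide to 0.321 for Gli1 with the Kif3a guide. Among 10 Hedgehog target genes 6 were lower and 1 was higher with the Ofd1 guide (median -0.43), and 5 were lower and 1 was higher with the Kif3a guide (median -0.60), where 8.09% and 10.9% of all tested genes were lower. The lower ones numbered 3 on leaving out either GFP control library with the Ofd1 guide, and 2 on leaving out Kif3a CRISPR replicate 1 with the Kif3a guide. The higher one was Atoh1, which encodes a factor that defines granule neuron progenitors (0.53, adjusted p = 0.00322, and 0.57, adjusted p = 0.00232), and this call was kept in every fit with a library left out. Some of these targets are also on the lists above.

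Relatives of the 8 genes were examined for comparison. Of 9 Frizzled receptors, which share the fold of Smo, Fzd9 was higher with both guides (0.76 and 0.71) and Fzd5 with the Kif3a guide (0.53), with medians of 0.15 and 0.12. Among 5 immunoglobulin and fibronectin domain receptors like Boc and Cdon, the netrin receptor gene Dcc (0.32 and 0.60) and the Slit receptor gene Robo2 (0.40 and 0.57) were higher with both guides, with medians of 0.08 and 0.15, whereas Boc and Cdon themselves did not pass. Dcc with the Kif3a guide kept its call in every fit with a library left out. In the others the highest adjusted p was 0.164 for Dcc with the Ofd1 guide, 0.121 and 0.0766 for Robo2, 0.124 and 0.139 for Fzd9 and 0.121 for Fzd5. Of 3 genes of the GDNF receptor family, to which Gas1 is related, Gfra1 was called higher with both guides, at 6 and 2 counts in GFP control, 19, 12 and 14 in Ofd1 CRISPR and 24 and 14 in Kif3a CRISPR. At so few counts its calls were kept in 2 and 4 of the 7 fits with a library left out, with a highest adjusted p of 0.237 and 0.181.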

How the data were processed

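The 7 libraries were poly(A)-selected, strand-marking libraries of SMB21 RNA, sequenced together in a single run, per the labels' protocols. The authors deposited a table of raw counts per gene. STAR, DESeq2 and mouse build mm9 are named without versions in the submitters' processing notes, and the counting tool, annotation, strand setting and filters used are not given in the sources. Columns were matched to samples by name. From these counts, R 4.3.3 with edgeR 4.0.16 computed TMM factors, filterByExpr kept 12875 of 24047 genes (99.96% of counts), and glmQLFit with 1 mean per group and glmQLFTest gave each comparison over all 7 libraries, with Benjamini-Hochberg adjustment. The common biological coefficient of variation was 7.43%. DESeq2 1.42.0 served as an alternative, beside RLE factors, library totals, 2 other filters, fits of 2 groups alone, a replicate block and each library left out in turn. The fitting script was tested on simulated counts.

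The members, gene lists, motifs and markers were chosen with earlier results of these data known. The 8 members were always named, and from each list the called genes (all where 5 or fewer were called, otherwise at most 3). For likeness the 3 genes with the highest r were taken. A few items that these rules name are not reported here. Of 85 list entries, 84 matched a row. Exon lengths are from GENCODE M21 and were joined by symbol. No 2 libraries of a group agreed within sampling noise.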

Additional observations from a re-analysis of the deposited data

How the results depend on the processing

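Over 14 alternatives for each of the 8 genes in 3 comparisons, 297 of 336 log2 fold changes kept their sign and their side of the threshold, 7 lost the call, 6 gained it and 26 changed sign, all of these last for differences that did not pass. The signs of Gas1, Evc, Evc2 and Smo against GFP control did not change in any alternative. The adjusted p ranged from 0.000373 to 0.109 for Gas1 with the Ofd1 guide, from 2.69e-05 to 0.101 for Gas1 with the Kif3a guide, from 0.00105 to 0.208 and from 0.00164 to 0.145 for Evc, and from 0.00717 to 0.258 and from 0.0398 to 0.309 for Evc2. Library totals alone called Evc2 with the Ofd1 guide (0.27, adjusted p = 0.0289), and a fit of 2 groups called it with the Kif3a guide (0.20, adjusted p = 0.0447). With totals alone the share of higher genes among those called was 57.5% with the Ofd1 guide, beside 45.6% with TMM. The cause of these shifts was not tested. Cdon, with 27 to 47 counts a library, had the widest intervals of the 8 genes.

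The replicate numbers were taken as names only, since the labels give same-numbered libraries no shared source and each comparison has just 2 such pairs. The deviations of same-numbered libraries correlated with r of 0.199 and 0.190 between GFP control and Ofd1 CRISPR, -0.0086 and -0.0086 between GFP control and Kif3a CRISPR, and 0.234 and 0.152 between the CRISPR groups. A fit with the replicate number as a block, in which Ofd1 CRISPR replicate 3 has no partner, called 3496 genes with the Ofd1 guide and 191 between the CRISPR groups, and 3 of the 8 genes against GFP control with each guide, Evc2 being added (0.28, adjusted p = 0.00717, and 0.20, adjusted p = 0.0398). Between the CRISPR groups the block turned Boc to -0.0026 and Evc to 0.0306.

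With single libraries left out, the genes called ranged from 664 (without GFP control replicate 1) to 2831 (without Ofd1 CRISPR replicate 3) with the Ofd1 guide, beside 1915 in all and 816 without GFP control replicate 2. With the Kif3a guide they ranged from 686 (without Kif3a CRISPR replicate 1) to 3119 (without Ofd1 CRISPR replicate 1), beside 2584 in all and 1100 and 1362 without GFP control replicates 1 and 2. Between the CRISPR groups they ranged from 0 (without Kif3a CRISPR replicate 1) to 50 (without Ofd1 CRISPR replicate 1), beside 23 in all and 12 without Kif3a CRISPR replicate 2. There DESeq2 called 103 genes and the fit with no filter on low counts 80. The count of members called ranged from 0 (without GFP control replicate 1) to 3 (without Ofd1 CRISPR replicate 3) with the Ofd1 guide, and was 1 without GFP control replicate 2 and also 1 without the second Ofd1 CRISPR library. With the Kif3a guide it ranged from 0 (without Kif3a CRISPR replicate 1) to 3, and was 1 without GFP control replicate 1. Where a group kept 1 library, its spread was assumed to be that of the other groups. Log2 fold changes that turned with a library left out were those of Boc (-0.0318 to 0.0431 with the Ofd1 guide, -0.0398 to 0.0236 with the Kif3a guide, -0.0242 to 0.0507 between the CRISPR groups), Cdon with the Ofd1 guide (-0.0719 to 0.0988), Iqce with the Kif3a guide (-0.154 to 0.00764) and, between the CRISPR groups, Efcab7 (-0.116 to 0.0427), Evc (-0.0735 to 0.0309), Gas1 (-0.0713 to 0.324), Iqce (-0.141 to 0.00365) and Smo (-0.0259 to 0.0607). Boc also turned with totals alone (0.0338 and 0.0225 with the Ofd1 and Kif3a guides) and, with the Ofd1 guide, in a fit of 2 groups (0.0011). The pathway list genes called, an alternative added after seeing the data, ranged from 4 to 24 with the Ofd1 guide and from 5 to 23 with the Kif3a guide.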
